A study of Homo sapiens with 12 samples.

Results

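The genes described here are 9 enzymes that make asparagine, serine and proline from carbon of central metabolism, or that pass serine carbon into mitochondrial folate: ASNS, PHGDH, PSAT1, PSPH, SHMT2, MTHFD2, MTHFD1L, ALDH18A1 and PYCR1. They were chosen by symbol, with earlier results of these data known, from the 26475 gene symbols measured. All 9 passed the filter on low counts that left 14582 genes to be tested. RNA-seq was performed on parental MIAPaCa2 cells, an established pancreatic ductal adenocarcinoma (PDAC) cell line, and on oxamate-resistant MIAPaCa2 cells, each with vehicle or with oxamate, in 3 replicates per group and 12 libraries in all. Oxamate is an inhibitor of lactate dehydrogenase A (LDHA), the enzyme that reduces pyruvate to lactate, and the labels call the oxamate groups LDHA inhibitor and the vehicle groups untreated. The resistant cells were a polyclonal population that survived 4 weeks in 10 mM oxamate, so they stand for 1 selection from 1 cell line, and all 4 groups share the same growth medium with serum. How long the cells met oxamate before RNA was taken is not given in the sources used here, nor whether replicates were separate cultures, so p-values measure the spread between these libraries, which may be technical. Since whole populations were measured, fewer cells with a transcript and less transcript per cell cannot be told apart.

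Serine is made from the glycolytic intermediate 3-phosphoglycerate in consecutive steps by PHGDH, which oxidises it, PSAT1, which adds an amino group taken from glutamate, and PSPH, which removes the phosphate. In mitochondria SHMT2 splits serine into glycine and a folate-bound carbon unit, MTHFD2 oxidises that unit, and MTHFD1L releases it as formate, which the cytosol uses for purines, thymidylate and methionine. ASNS transfers the amide group of glutamine to aspartate to give asparagine, while ALDH18A1 reduces glutamate and PYCR1 completes proline, both at the expense of NAD(P)H. Many of these genes are known targets of ATF4, a transcription factor whose translation rises when amino acids are short or the endoplasmic reticulum is stressed.

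The libraries held 46698729 to 114222169 expected counts, and every parental library was deeper than every resistant library. Over the 9 genes the counts per library ran from 1625 for PSPH to 30244 for MTHFD2, far above the floor of 3 counts, which equals 0.0283 to 0.0581 CPM (counts per 1000000 after TMM scaling). VIM, KRT8 and KRT18 were expressed in every library, CDKN2A, which is deleted in this line, had 0 counts throughout and CDH1 at most 2. Of 6 markers of other cells, PTPRC, DCN and LUM had at most 3 counts and PECAM1 at most 11, CDH5 lay between 0.386 and 0.957 CPM, and CD68, a lysosomal protein of macrophages, between 56.4 and 220.2 CPM, with every resistant library below every parental library. The nuclear-retained RNA MALAT1 differed between and within groups, at 183 to 199 CPM in parental cells after vehicle, 281 to 596 CPM in parental cells under oxamate, 244 to 597 CPM in resistant cells after vehicle and 577 to 742 CPM in resistant cells under oxamate. The third libraries of parental cells under oxamate and of resistant cells after vehicle stood apart from their replicates in it, and results that change without both are given with their values.

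Promoter sequence, 250 bases before to 50 bases after a RefSeq start, was at hand for 6 of the 9 genes (ASNS, PHGDH, PSAT1, MTHFD2, MTHFD1L and ALDH18A1) in the build GRCh38.p14. The core of the C/EBP-ATF response element that ATF4 can bind was searched as TGATGNAA on both strands. It was found in 4 of the 10 windows of these genes, which belong to ASNS and MTHFD1L, and in 3.62% of 35116 human promoter windows. The E-box CACGTG, the same on either strand, was found in 4 of the 10, which belong to MTHFD1L and ALDH18A1, and in 7.26% of all windows. The 250 bases before the start are shown for 3 genes that fell under oxamate in both cell populations and that differ in these letters, with the matches in capitals. They lie at chr7:97872409-97872658 on the minus strand for ASNS, chr6:150866236-150866485 on the plus strand for MTHFD1L and chr9:78296875-78297124 on the plus strand for PSAT1.
ASNS: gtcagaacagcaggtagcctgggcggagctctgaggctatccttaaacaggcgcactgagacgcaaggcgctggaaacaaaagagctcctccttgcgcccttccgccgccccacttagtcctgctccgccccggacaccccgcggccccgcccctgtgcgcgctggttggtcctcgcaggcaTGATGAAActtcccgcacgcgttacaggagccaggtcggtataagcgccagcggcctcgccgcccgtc
MTHFD1L: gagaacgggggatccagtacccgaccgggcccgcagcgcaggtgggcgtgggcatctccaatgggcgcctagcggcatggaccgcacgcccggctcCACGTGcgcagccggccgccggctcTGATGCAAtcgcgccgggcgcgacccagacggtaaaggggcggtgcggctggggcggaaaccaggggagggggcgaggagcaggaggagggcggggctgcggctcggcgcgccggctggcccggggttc
PSAT1: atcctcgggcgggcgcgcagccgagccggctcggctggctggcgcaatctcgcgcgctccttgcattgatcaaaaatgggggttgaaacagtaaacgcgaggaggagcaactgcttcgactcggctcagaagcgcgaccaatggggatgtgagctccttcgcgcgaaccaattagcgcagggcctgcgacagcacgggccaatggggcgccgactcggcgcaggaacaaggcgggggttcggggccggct
In ASNS the capitals mark the response element core, TGATGAAA, whose first base lies 68 bases before the start, and a second ASNS window, which begins downstream, held neither motif. In MTHFD1L they mark the E-box at 154 and the core, TGATGCAA, at 129 bases before the start. Of the other 3 MTHFD1L windows, 2 overlap this one and hold the same matches, with the core 90 bases before or 24 bases after their own starts, and 1 held neither motif. The PSAT1 window held neither string, and the same was true of PHGDH and MTHFD2, which is a statement about these letters in these windows only.

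To see how amino acid synthesis genes respond to LDHA inhibition, oxamate was compared with vehicle in each cell population. In parental cells 7 of the 9 genes fell and 1 rose at an adjusted p under 0.05, where 30.4% of all genes tested were called lower and 28.3% higher. In resistant cells 7 of the 9 fell and 0 rose (edgeR, with 0 also at an unadjusted p under 0.05 and by DESeq2 and limma-voom), where 12.5% of all genes tested were lower and 9.01% higher. ASNS, PHGDH, PSAT1, MTHFD2, MTHFD1L and PYCR1 fell in both populations, which makes 6 of 9 against 5.62% of all genes tested. Since the 9 genes were chosen with earlier results of these data known, such counts beside shares are a description and no test. The median log2 fold change of the 9 genes was -0.17 in parental and -0.27 in resistant cells, against 0.0030 and -2.1e-05 over all genes tested. Most changes were modest: ASNS in resistant cells was the only one of these calls past 1.5-fold, a size that 0.158% of all genes reached downward in that comparison, against 4.06% downward and 5.32% upward in parental cells. At the threshold of the study, an unadjusted p under 0.05 with a fold change over 1.5, ASNS was again the only one of the 9 to fall in resistant cells (0.274% of all genes) and none changed in parental cells (4.19% lower and 5.69% higher). The 4 nuclear-retained RNAs MALAT1, NEAT1, KCNQ1OT1 and MIAT were called higher under oxamate in parental cells and 1 of them, MIAT, in resistant cells. With the mean level of these RNAs as a covariate, 5 of the 9 synthesis genes fell in parental and 7 in resistant cells, where 25.3% and 6.45% of all genes fell. In parental cells each of these RNAs was higher in every oxamate library than in every vehicle library. The covariate therefore follows treatment there, and a call lost with it cannot be told from a treatment effect that it removed.

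**Figure D1:**
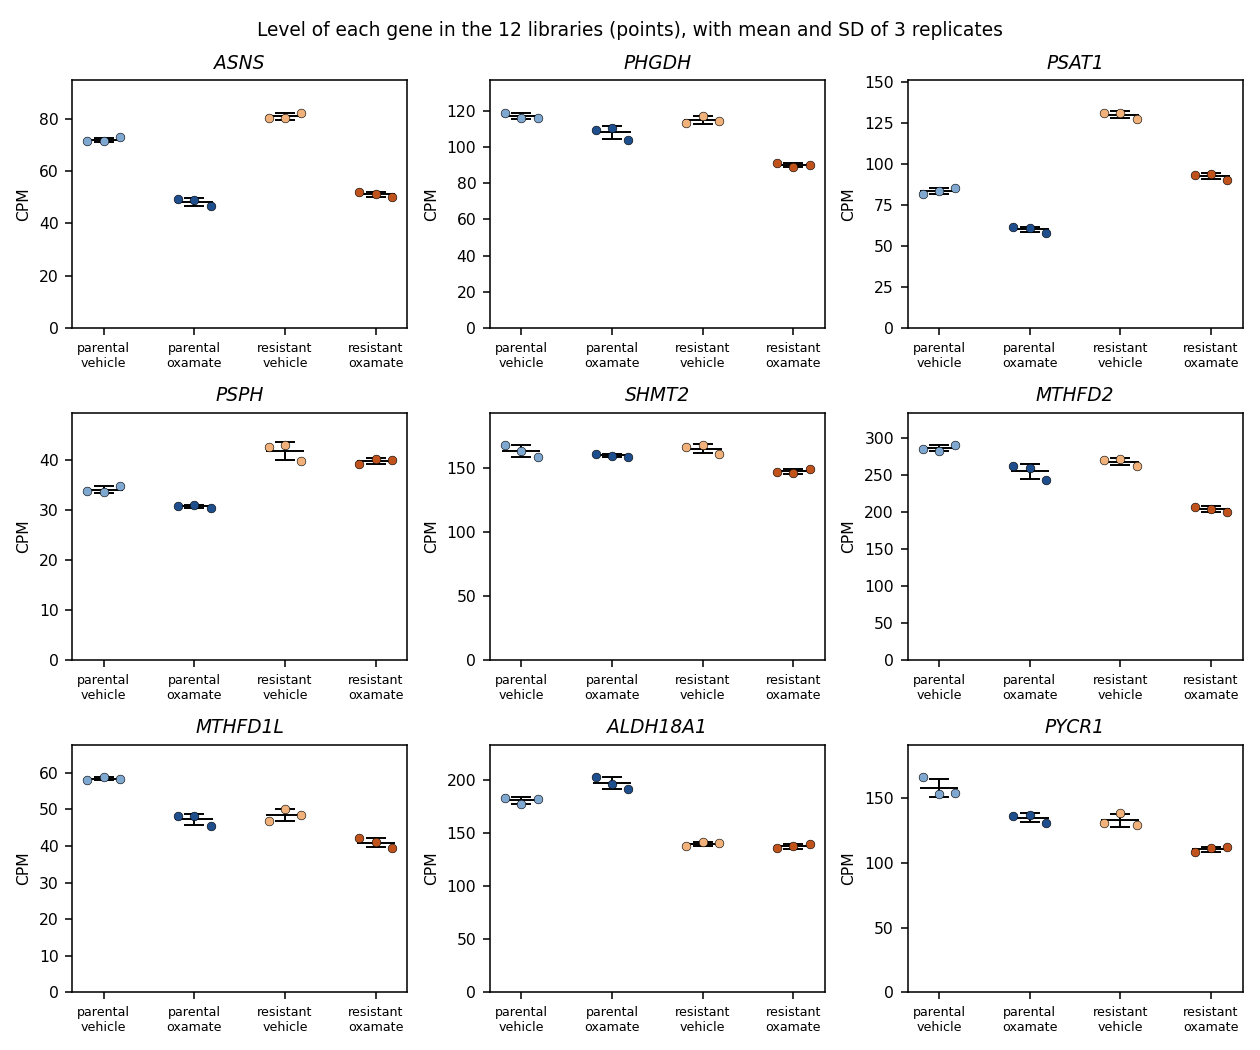
Level of each of the 9 genes in CPM (vertical axes from 0) in the 12 libraries, by group. Points are libraries, the long bar is the mean of 3 replicates and the short bars 1 SD. ASNS and PSAT1 drop under oxamate in both populations, and PSAT1 stands highest in resistant cells after vehicle, at 127 to 131 CPM.

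ASNS, which makes asparagine and lies at chr7:97851677-97928441 (GRCh38.p14), changed most under oxamate. In parental cells its level was 71.6, 71.7 and 72.9 CPM in the 3 libraries after vehicle and 49.2, 48.9 and 46.6 CPM under oxamate. In resistant cells it was 80.3, 80.2 and 82.4 CPM after vehicle and 52.0, 51.1 and 50.3 CPM under oxamate. All 6 oxamate libraries therefore lay below all 6 vehicle libraries, whichever the population. ASNS fell by 33.1% in parental cells (log2 fold change -0.58 ± 0.03 SE, adjusted p = 1.76e-10, edgeR) and by 36.9% in resistant cells (-0.66 ± 0.03 SE, adjusted p = 4.79e-10, edgeR). The responses differed by -0.08 on the log2 scale, with an interval from -0.17 to -0.00046 and an adjusted p of 0.0962 (edgeR), so the difference did not pass the threshold. Without the third library of parental cells under oxamate that difference was -0.11 and passed it (adjusted p = 0.0269, edgeR).

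Of the serine pathway, PSAT1 fell most and by a like amount in both populations. PSAT1 (chr9:78297125-78330093) was at 82.0, 83.4 and 85.3 CPM in parental cells after vehicle and at 61.4, 60.8 and 58.1 CPM under oxamate. In resistant cells it was at 131, 131 and 127 CPM after vehicle and at 93.5, 94.0 and 90.3 CPM under oxamate. The groups did not overlap within either population, and the lowest resistant library under oxamate was above the highest parental library after vehicle. PSAT1 fell by 28.1% in parental cells (log2 fold change -0.48 ± 0.03 SE, adjusted p = 2.10e-09, edgeR) and fell by 28.8% in resistant cells (-0.49 ± 0.03 SE, adjusted p = 1.63e-08, edgeR). The difference between these responses had an interval from -0.10 to 0.07 on the log2 scale.

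PHGDH (chr1:119711934-119744215), the entry step, fell in both populations, by different amounts. Parental cells held 119, 116 and 116 CPM after vehicle and 109.7, 111 and 104 CPM under oxamate, while resistant cells held 113, 117 and 114.5 CPM after vehicle and 91.4, 89.1 and 89.9 CPM under oxamate. The oxamate libraries of either population lay below their vehicle libraries, and the 3 resistant ones lay below all others. PHGDH fell by 7.73% in parental and by 21.7% in resistant cells, log2 fold changes of -0.12 ± 0.03 and -0.35 ± 0.03 SE. The parental change was the smaller one. With the covariate for nuclear-retained RNA, which follows treatment in these cells, it was -0.06 (adjusted p = 0.143, edgeR).

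PSPH (chr7:56011064-56051444), the last step, was at 33.7, 33.6 and 34.8 CPM in parental cells after vehicle and at 30.7, 30.9 and 30.3 CPM under oxamate, groups that did not overlap. In resistant cells the vehicle libraries at 42.5, 42.9 and 39.7 CPM overlapped the oxamate libraries at 39.0, 40.1 and 40.0 CPM. PSPH fell by 9.73% in parental cells (adjusted p = 0.00131, edgeR), a call lost with the covariate for nuclear-retained RNA (adjusted p = 0.158, edgeR). In resistant cells its log2 fold change of -0.07 did not pass (interval -0.14 to -0.00075, adjusted p = 0.137, edgeR), but without the third vehicle library, the lowest of that group, it was -0.11 (adjusted p = 0.0272, edgeR). PSPH has a near-identical pseudogene copy, PSPHP1, which is not among the gene symbols measured. Reads of the copy may have been counted as PSPH, and 2 of the 12 expected counts of PSPH were not whole. The values of PSPH are uncertain to that extent.

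Among the mitochondrial folate enzymes, MTHFD2 and MTHFD1L fell in both populations and SHMT2 in resistant cells. MTHFD2 (chr2:74198615-74217565), the dehydrogenase, was at 285, 281 and 290.1 CPM in parental cells after vehicle and at 262, 259 and 243 CPM under oxamate. Resistant cells held 269, 272 and 262 CPM after vehicle and 207, 204 and 199 CPM under oxamate. Neither population had overlapping groups, and the 3 resistant oxamate libraries were the lowest of the 12. MTHFD2 fell by 10.8% in parental (log2 fold change -0.17 ± 0.03 SE) and by 24.0% in resistant cells (-0.40 ± 0.03 SE).

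SHMT2 (chr12:57229711-57234935), which feeds serine into that chain, did not pass the test in parental cells, where the libraries at 168, 163 and 159 CPM after vehicle overlapped those at 161, 159.5 and 159 CPM under oxamate. Its parental log2 fold change was -0.03 with an interval from -0.09 to 0.02, but with library size alone it was -0.11 and passed (adjusted p = 0.00122, edgeR). Resistant cells held 166, 168 and 161 CPM after vehicle and 147, 146 and 149 CPM under oxamate, which do not overlap, and SHMT2 fell by 10.7% there (log2 fold change -0.16 ± 0.03 SE, adjusted p = 0.00058, edgeR). MTHFD1L (chr6:150865702-151101887), which releases formate, was at 58.1, 58.9 and 58.3 CPM in parental cells after vehicle and at 48.2, 48.1 and 45.6 CPM under oxamate. In resistant cells it was at 46.9, 50.1 and 48.6 CPM after vehicle and at 42.2, 41.0 and 39.6 CPM under oxamate. Both pairs of groups were apart: MTHFD1L fell by 19.2% in parental (log2 fold change -0.31 ± 0.03 SE) and by 15.7% in resistant cells (-0.25 ± 0.03 SE).

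The proline enzymes went different ways. ALDH18A1 (chr10:95605941-95656711), which reduces glutamate at the start of the pathway, rose in parental cells from 183, 178 and 183 CPM after vehicle to 203, 197 and 192 CPM under oxamate, without overlap. This was the only rise under oxamate among the 9 genes, by 8.95% (log2 fold change 0.12 ± 0.03 SE, adjusted p = 0.000644, edgeR), and with libraries scaled by their totals alone it was 0.05 (adjusted p = 0.0823, edgeR). In resistant cells ALDH18A1 was at 138, 142 and 141 CPM after vehicle and at 136, 138 and 140.2 CPM under oxamate, which overlap, with an interval of the log2 fold change from -0.08 to 0.03. PYCR1 (chr17:81932391-81937300), which completes proline in mitochondria, was at 166, 153 and 154 CPM in parental cells after vehicle and at 136, 137 and 131 CPM under oxamate. In resistant cells it was at 131, 138 and 129 CPM after vehicle and at 108, 111 and 112 CPM under oxamate. Every oxamate library of PYCR1 was below the vehicle libraries of its own population, and PYCR1 fell by 14.7% in parental (log2 fold change -0.23 ± 0.03 SE) and fell by 16.9% in resistant cells (-0.27 ± 0.04 SE).

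**Figure D2:**
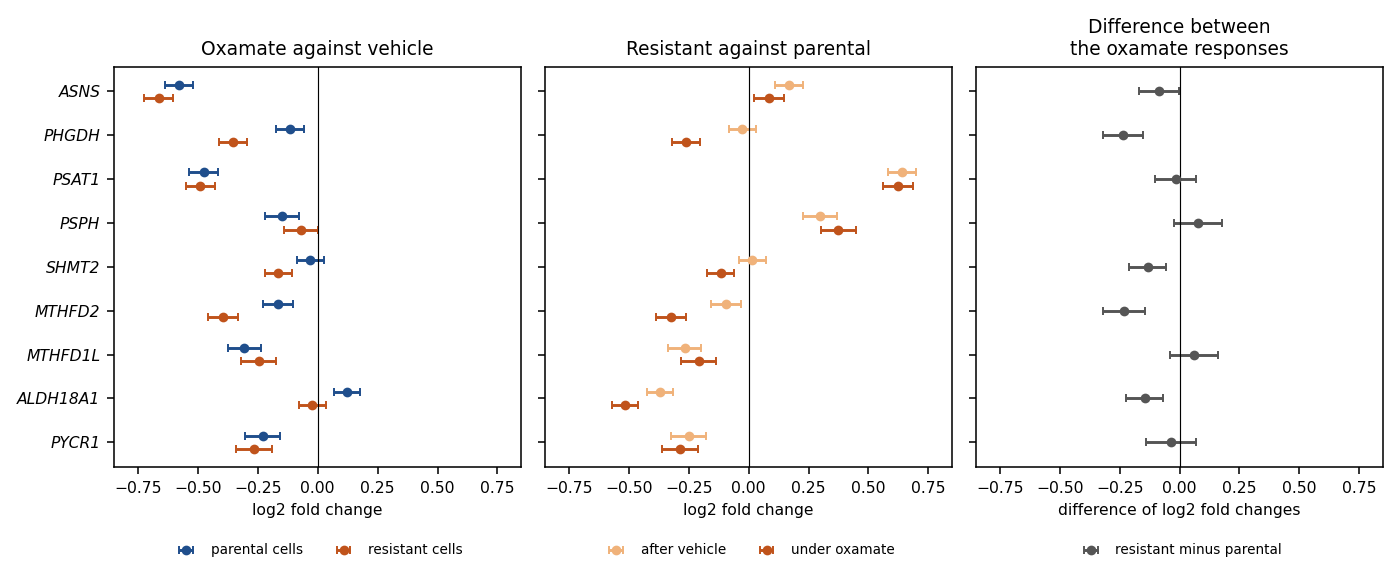
Log2 fold changes of the 9 genes with 95% confidence intervals from edgeR: oxamate against vehicle in each population, resistant against parental cells after vehicle and under oxamate, and the difference between the oxamate responses (resistant minus parental). ASNS and PSAT1 lie furthest to the left under oxamate, and between the populations PSAT1 lies furthest to the right and ALDH18A1 furthest to the left. Scaled by library size alone, PHGDH and MTHFD2 after vehicle, PHGDH, SHMT2, MTHFD2, MTHFD1L and PYCR1 under oxamate, and ASNS, PSAT1 and PYCR1 in the difference change sign, as ALDH18A1 does for oxamate in resistant cells.

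Oxamate-resistant cells were then compared with parental cells, to see what the selected population expressed with and without the drug. After vehicle 3 genes were higher in resistant cells (ASNS, PSAT1 and PSPH) and 4 were lower (MTHFD2, MTHFD1L, ALDH18A1 and PYCR1), where 38.4% of all genes tested were called higher and 37.3% lower. Under oxamate the same 3 were higher and 6 lower, those 4 with PHGDH and SHMT2, where 40.6% of all genes were higher and 39.7% lower. Shares of this size in the background mean that the counts are no result about these genes as a group. Of the 4 nuclear-retained RNAs, 3 were higher in resistant cells in either treatment. Higher in both treatments were 3 of the 9 (32% of all genes) and lower in both 4 (32.2%). These directions rest on TMM scaling: library size alone moved the median of all genes by 0.22 after vehicle and 0.32 under oxamate, and then 6 of the 9 genes were called higher and 1 lower in either treatment, where 58.6% of all genes were higher and 19.0% lower after vehicle and 62.6% and 19.3% under oxamate. Relative to the median of all genes, 3 genes were above and 6 below in either treatment under both scalings.

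PSAT1 differed most between the populations, at 1.56-fold after vehicle (log2 fold change 0.64 ± 0.03 SE, adjusted p = 8.83e-12, edgeR) and 1.54-fold under oxamate (0.62 ± 0.03 SE, adjusted p = 9.68e-12, edgeR). It was the only one of the 9 past 1.5-fold here, a size that 17% of all genes tested reached upward after vehicle and 22.7% under oxamate (17.2% and 22.9% at the study's threshold), and tested against 1.5-fold itself it did not pass (adjusted p = 0.0634 and 0.114, edgeR). PSPH was 22.9% higher after vehicle and 29.6% higher under oxamate, so these steps of serine synthesis stood above the parental level with both treatments. PHGDH, the step before them, did not pass after vehicle (log2 fold change -0.03, interval -0.08 to 0.03) and was lower under oxamate (-0.26 ± 0.03 SE), a direction that turned to 0.06 with library size alone. ASNS was 12.4% higher after vehicle and 6.06% higher under oxamate, the latter with an adjusted p of 0.0131 (edgeR) that became 0.0985 without the third parental oxamate library, 0.053 without the first resistant oxamate library, and 0.0913 without both libraries rich in nuclear-retained RNA.

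By TMM scaling the proline enzymes and MTHFD1L were lower in resistant cells. ALDH18A1 was lower after vehicle (log2 fold change -0.37 ± 0.03 SE) and under oxamate (-0.52 ± 0.03 SE), with all 6 resistant libraries between 136 and 142 CPM and all 6 parental ones between 178 and 203 CPM. That direction held under every scaling tried. PYCR1 was lower with a log2 fold change of -0.25 ± 0.03 SE after vehicle and -0.29 ± 0.04 SE under oxamate, and MTHFD1L with -0.27 ± 0.03 and -0.21 ± 0.03 SE. With library size alone, PYCR1 was at -0.03 and 0.04, and MTHFD1L at -0.05 and 0.12. Of these values only the last passed, so MTHFD1L was then called higher under oxamate (adjusted p = 0.00254, edgeR). MTHFD2 was lower after vehicle (-0.09 ± 0.03 SE), a call lost with upper-quartile factors, with the covariate for nuclear-retained RNA and, with the sign turned, with library size alone. After vehicle MALAT1, NEAT1 and MIAT were higher in every resistant than in every parental library, while KCNQ1OT1 overlapped. A call lost with the covariate therefore cannot be told from a population effect that it removed. MTHFD2 was lower under oxamate (-0.33 ± 0.03 SE), but at 0.00019 with library size alone (adjusted p = 0.994, edgeR). SHMT2 did not pass after vehicle (log2 fold change 0.02, interval -0.04 to 0.07), but was called higher with upper-quartile factors (0.09, adjusted p = 0.00311, edgeR) and library size alone (0.23, adjusted p = 3.2e-07, edgeR). It was at -0.12 ± 0.03 SE under oxamate, -0.03 with upper-quartile factors (adjusted p = 0.262, edgeR) and 0.21 with library size alone.

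Whether the populations responded differently to oxamate was tested as the difference of the log2 fold changes, resistant minus parental. PHGDH (-0.24 ± 0.04 SE, adjusted p = 0.000128), MTHFD2 (-0.23 ± 0.04 SE, adjusted p = 0.000325), ALDH18A1 (-0.15 ± 0.04 SE, adjusted p = 0.0042) and SHMT2 (-0.13 ± 0.04 SE, adjusted p = 0.00801) passed in edgeR, all with the lower value in resistant cells. These are 4 of 9, where 21.4% of all genes tested were called lower and 22.7% higher, and 0 of the 9 were called higher (0 also at an unadjusted p under 0.05 and by DESeq2 and limma-voom). Library size alone, which moved the median of all genes by 0.10 here, left 2 lower (PHGDH and MTHFD2, where 12.0% of all genes were lower) and made 3 higher (PSAT1, PSPH and MTHFD1L, where 34.6% were higher). SHMT2 (-0.03) and ALDH18A1 (-0.04) lost the call under that scaling. For PYCR1 the interval of the difference ran from -0.14 to 0.07, for MTHFD1L from -0.04 to 0.16 and for PSPH from -0.02 to 0.18. The 2 oxamate comparisons share no library, but the difference and the comparisons between populations are built from the same 12.

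Ratios of neighbouring enzymes within a library do not depend on how libraries are scaled. They are given as values, because an exact permutation test of 3 libraries against 3 cannot go below p = 0.1. The log2 ratio of PSAT1 to PHGDH, successive steps of serine synthesis, was -0.49 ± 0.05 (SD, n = 3) in parental cells after vehicle and -0.85 ± 0.01 under oxamate, against 0.18 ± 0.03 in resistant cells after vehicle and 0.04 ± 0.04 under oxamate. It separated the populations in all 12 libraries and was lower under oxamate within each. The ratio of PYCR1 to ALDH18A1, the last and first steps of proline synthesis, was -0.20 ± 0.05 after vehicle and -0.55 ± 0.03 under oxamate in parental cells, and -0.08 ± 0.04 and -0.32 ± 0.01 in resistant cells. Treatments did not overlap within a population, nor populations within a treatment. Resistant libraries under oxamate, however, lay below parental libraries after vehicle.

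For the folate enzymes that have a counterpart outside mitochondria, MTHFD2 was set against cytosolic MTHFD1 and SHMT2 against cytosolic SHMT1. The log2 ratio of MTHFD2 to MTHFD1 was 0.16 ± 0.01 in parental cells after vehicle, 0.05 ± 0.03 under oxamate, 0.57 ± 0.02 in resistant cells after vehicle and 0.21 ± 0.03 under oxamate (SD, n = 3 each). Resistant cells were thus higher in this ratio in either treatment. By TMM scaling MTHFD2 itself was not higher, and MTHFD1 had a log2 fold change of -0.50 between the populations after vehicle. With library size alone MTHFD2 was called higher in resistant cells after vehicle (0.13, adjusted p = 0.000168, edgeR). How far each gene accounts for the ratio therefore depends on the scaling. SHMT2 to SHMT1 was at 1.02 ± 0.06 and 1.00 ± 0.05 in parental cells, groups that overlap, and at 1.33 ± 0.05 and 1.13 ± 0.03 in resistant cells, which do not, each time with the vehicle value first.

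**Figure D3:**
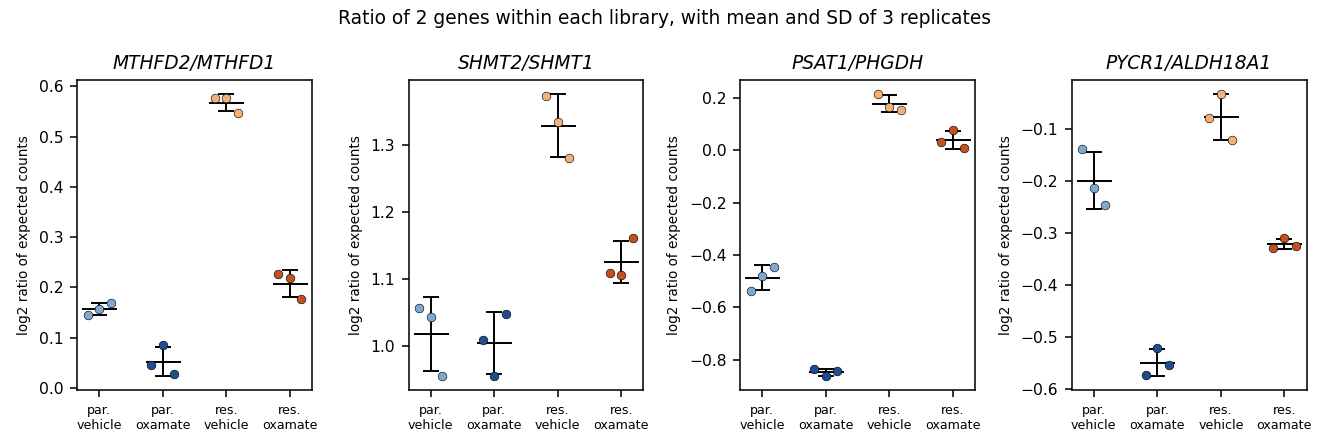
Log2 ratio of the expected counts of 2 genes within each library, by group (par., parental; res., resistant). Points are libraries, the long bar is the mean of 3 replicates and the short bars 1 SD, and the vertical axes differ and do not start at 0. PSAT1 to PHGDH is above 0 in every resistant and below -0.44 in every parental library.

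Levels of different genes were set side by side as CPM per kb, with the length of the GENCODE 29 transcript that has the longest coding sequence. PYCR1 was at 82.1 to 117 over the 4 group means, SHMT2 at 58.1 to 65.1, MTHFD2 at 45.6 to 64.1, ALDH18A1 at 41.1 to 58.8, PSAT1 at 27.5 to 59.5, PHGDH at 34.9 to 45.3, ASNS at 20.5 to 34.4, PSPH at 14.1 to 19.2 and MTHFD1L at 11.8 to 16.8. The order between genes depends on the transcript taken, which these counts do not resolve. Coding transcripts of MTHFD2 ran from 1757 to 4456 bases, and with the shortest MTHFD2 would be at 116 to 163 CPM per kb, above PYCR1. With its shortest coding transcript of 1049 bases MTHFD1L would be at 39.0 to 55.7 CPM per kb and no longer among the lowest, whereas PSPH would be at 14.4 to 19.6. With the lengths first named, SHMT2 at 64.3 ± 1.85 and MTHFD2 at 64.1 ± 0.975 (SD, n = 3) did not differ beyond their spread in parental cells after vehicle.

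Genes of the wider pathways were counted in the same way under oxamate, beside the shares over all genes of 28.3% higher and 30.4% lower in parental and 9.01% higher and 12.5% lower in resistant cells. Of 20 genes of folate metabolism and glycine cleavage, 5 were called higher and 9 lower in parental cells and 2 higher and 0 lower in resistant cells, where the median log2 fold change was 0.04. Of 10 tested genes of proline and glutamate metabolism, 3 were higher and 4 lower in parental and 1 higher and 3 lower in resistant cells. Of 11 tested for aspartate and asparagine, 2 were higher and 5 lower in parental and 0 higher and 3 lower in resistant cells, and of 12 tested that use or carry serine, 4 were higher and 4 lower in parental and 0 higher and 3 lower in resistant cells. SDS, SPTLC3, PRODH2, GLS2 and ASPG had too few counts to be tested. Medians in these 4 lists lay between -0.10 and 0.04 in both populations. That is nearer 0 than the median of the 9 synthesis genes, a description that was not tested.

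The strongest single changes in the neighbouring pathways were between the populations. PRODH, which breaks proline down in mitochondria, was at 1.199 ± 0.0256 CPM in vehicle-treated parental cells and 4.06 ± 0.206 CPM in vehicle-treated resistant cells (SD, n = 3), a log2 fold change of 1.76 ± 0.09 SE, opposite in direction to ALDH18A1 and PYCR1. PRODH also rose under oxamate in parental cells, to 2.02 ± 0.208 CPM (log2 fold change 0.76 ± 0.10 SE). MTRR, which keeps methionine synthase active, was higher in resistant cells under oxamate, at 25.5 ± 0.486 against 12.9 ± 0.0354 CPM. SLC25A13, the mitochondrial aspartate-glutamate carrier, was at 22.0 ± 0.694 against 7.66 ± 0.562 CPM in the same comparison. GPT, alanine aminotransferase, and SLC1A3, an aspartate and glutamate transporter, also passed the rule for naming but reached at most 0.873 CPM in any library, with 5 to 59 counts.

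**Figure D4:**
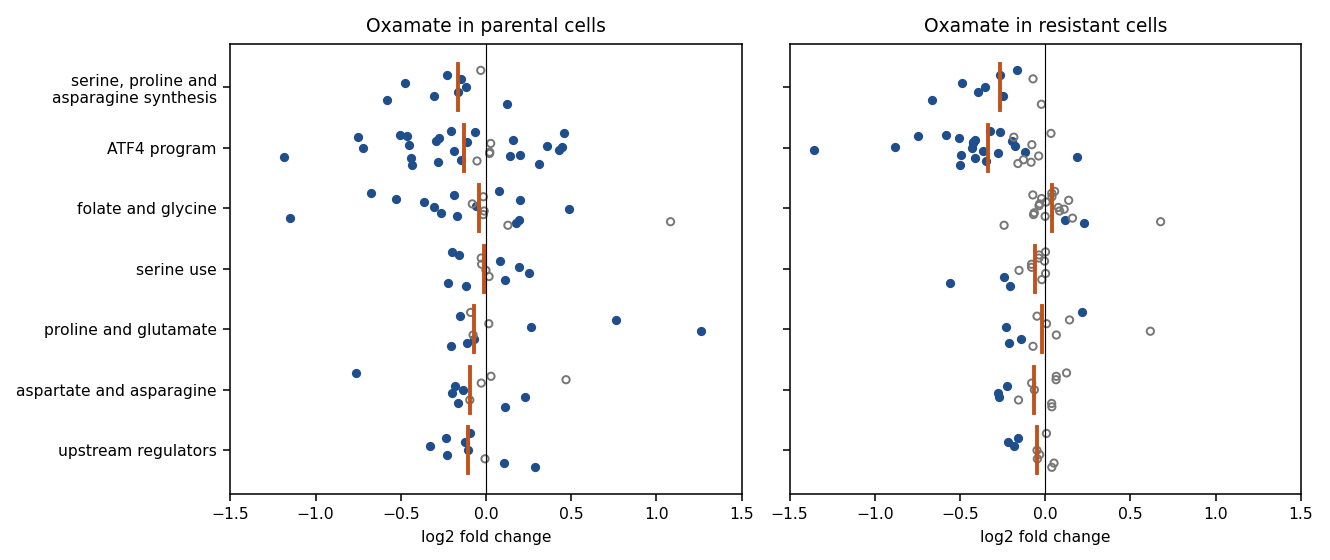
Log2 fold change under oxamate of every tested gene of 7 lists, in parental (left) and resistant cells (right). Filled points passed an adjusted p under 0.05, open points did not, and the orange bar is the list's median. Medians of the 9 synthesis genes (-0.17 and -0.27) and of the ATF4 program (-0.13 and -0.34) lie lowest in both panels.

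A list of 30 genes of the ATF4 program outside the 9, of which 28 were tested (STC2 and FGF21 had at most 2 counts), was set beside them. In parental cells 8 were higher and 16 lower under oxamate (median log2 fold change -0.13), where 28.3% of all genes were higher and 30.4% lower. In resistant cells 1 was higher and 20 lower (median -0.34), where 9.01% of all genes were higher and 12.5% lower. Between the populations 15 were higher and 10 lower in resistant cells after vehicle, where 38.4% and 37.3% of all genes were, and 10 higher and 17 lower under oxamate, where 40.6% and 39.7% were. ATF4 mRNA itself was at 207, 207 and 207 CPM in parental cells after vehicle and 168, 164 and 179 CPM under oxamate, without overlap, a log2 fold change of -0.28 ± 0.03 SE. In resistant cells it was at 272, 267 and 278 CPM after vehicle and 259, 255 and 258 CPM under oxamate, where the groups do not overlap but the change of -0.08 ± 0.03 SE did not pass (adjusted p = 0.0529, edgeR). ATF4 transcript was thus higher in resistant than in parental cells in either treatment (log2 fold changes 0.40 and 0.59). By TMM scaling ASNS, PSAT1 and PSPH were also higher in both treatments, while MTHFD2, MTHFD1L, ALDH18A1 and PYCR1 were lower. By library size alone only ALDH18A1 of the 9 genes was called lower. ATF4 is regulated largely by translation, which mRNA levels do not show.

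Members of the ATF4 program did not move as a block. CHAC1, which degrades glutathione, under oxamate was at 1.12 ± 0.0631 CPM in the parental and 13.4 ± 0.296 CPM in the resistant population (log2 fold change 3.57 ± 0.07 SE), and SLC7A11, the cystine importer, at 1.18 ± 0.214 and 12.2 ± 0.215 CPM (3.35 ± 0.09 SE). PPP1R15A, which directs dephosphorylation of eIF2-alpha, was lower in resistant cells, at 119.5 ± 0.362 against 279 ± 10.9 CPM (-1.22 ± 0.03 SE). Of 9 upstream regulators (among them the 4 eIF2-alpha kinases, MYC, NFE2L2, KEAP1 and EHMT2), none passed 1.5-fold. Under oxamate in parental cells 5.32% of all genes tested reached that size upward and 4.06% downward. In that comparison 2 regulators were called higher and 6 lower, where 28.3% of all genes were higher and 30.4% lower. In resistant cells 0 were higher and 3 lower under oxamate, where 9.01% of all genes were higher and 12.5% lower. MYC, a transcription factor that can drive serine and proline genes, was at 263 ± 2.40 and 241 ± 0.337 CPM in parental and at 238 ± 3.98 and 204 ± 1.75 CPM in resistant cells (vehicle, then oxamate) and was named after its values were seen.

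By pattern over the 4 group means, the 9 genes were not alike. Measured as the root mean square difference of centred log2 CPM from their common mean, PHGDH (0.07), SHMT2 (0.08) and MTHFD2 (0.10) were closest to that mean, and PSAT1 (0.35) and ALDH18A1 (0.26) furthest from it. Among the other genes nearest the mean were BCL7A (0.02), TRIM71 (0.03), RIPK2 (0.03) and PBX3 (0.03). Nearest to ASNS alone were CCDC81 (0.09), HSPBAP1 (0.11) and AARS (0.11), an alanyl-tRNA synthetase that is also in the ATF4 list, at 541 and 401 CPM in parental and 672 and 475 CPM in resistant cells (vehicle, then oxamate). TRIM71 and CCDC81 were under 0.22 CPM in every group, and a likeness over 4 group means is a description only.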

How the data were processed

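RNA-seq of 12 libraries (4 groups of 3) was analysed, and the 9 genes and the pathway lists were chosen with earlier results of these data known. Per the paper's methods and the labels, the authors enriched mRNA with oligo(dT), mapped paired reads to transcripts of hg38 with Bowtie2 2.1.0 and deposited the expected counts per gene that RSEM 1.2.15 estimated, without normalization. Their methods also describe STAR with featureCounts, but 11.6% of the deposited values are not whole. RSEM divides reads shared between copies.

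Expected counts were rounded and tested in R 4.3.3 with edgeR 4.0.16 (filterByExpr, TMM, glmQLFit and glmQLFTest) over all 12 libraries and 4 group means, without covariates. Genes were called at a Benjamini-Hochberg adjusted p under 0.05 over 14582 genes. CPM are scaled by TMM, errors of levels are SD of 3 replicates and errors of fold changes are SE. The test was tried on simulated data. All intervals of fold changes are 95%, and floors cover counting error only. Library totals are given in the report.

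Named genes were the 9, LDHA, LDHB, MALAT1 and ATF4, up to 3 genes per list with the smallest p past 1.5-fold, and the genes nearest in pattern; some genes that this rule or a marker list gives are not reported here. LDHB had at most 1 count. LDHA had log2 fold changes of 0.62 (parental cells) and 0.34 (resistant cells) for oxamate.

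Positions and promoters came from RefSeq GRCh38.p14 and lengths from GENCODE 29. Alternatives were other scalings, filters and thresholds, counts not rounded, limma-voom (limma 3.58.1), DESeq2 1.42.0, a replicate block, a covariate for nuclear-retained RNA, fits on the 6 libraries compared, and each replicate left out. Leaving out both libraries rich in nuclear-retained RNA was added after the data had been seen. Replicates differed by more than sampling noise (chi-square per gene of 2.09 to 32.2), which cannot tell separate cultures from separate libraries of the same culture. Each library was counted separately. ATAC-seq and metabolite data were not analysed here.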

Additional observations from a re-analysis of the deposited data

Results flagged for a closer look

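The response to oxamate differed between the populations, by edgeR's test of the difference itself (adjusted p under 0.05), for 4 of the 9 synthesis genes, all lower in resistant cells, where 21.4% of all genes were called lower. The differences, resistant minus parental on the log2 scale, were -0.24 for PHGDH, -0.23 for MTHFD2, -0.15 for ALDH18A1 and -0.13 for SHMT2. With library size alone ALDH18A1 (-0.04, adjusted p = 0.347, edgeR) and SHMT2 (-0.03, adjusted p = 0.534, edgeR) lost the call.

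Among the other named genes, the difference was 0.51 for MTRR of folate metabolism. In parental cells MTRR fell under oxamate, while its resistant value of -0.02 on the log2 scale did not pass. SLC25A13 (0.89), CHAC1 (1.37) and SLC7A11 (0.57) also fell in parental cells, and of these CHAC1 rose in resistant cells, by 0.19 on the log2 scale. PRODH (-0.62) rose in parental cells and did not pass in resistant cells, while PPP1R15A (-0.54) rose in parental and fell in resistant cells.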

How the results depend on the processing

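Of 900 member values under alternatives, 827 kept their direction and side of the threshold, 48 lost a call, 8 gained one and 17 changed sign. DESeq2, limma-voom, RLE factors, filters, unrounded counts and the replicate block changed no count of calls. Same-numbered libraries did not deviate together (18 correlations from -0.07 to 0.25, 3 over 0.1, and in 0 of 6 group pairs all 3), so the numbers were not treated as pairs.

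Library size alone gave 0 genes higher (19.6% of all genes) and 8 lower, SHMT2 among them (40.6%), after oxamate in parental cells. It gave 6 higher and 1 lower between the populations in either treatment (58.6% to 62.6% and 19.0% to 19.3% of all genes), and 3 higher and 2 lower for the difference (34.6% and 12.0%), and the cause was not tested. Against 1.5-fold, edgeR called 0 of the 9 genes in either direction in all 5 comparisons. Of all genes, that test called 1.04% higher and 1.54% lower under oxamate in parental cells, and 0% and 0.0411% in resistant cells. Between the populations it called 10.1% higher and 3.58% lower after vehicle, and 17.0% and 7.64% under oxamate. For the difference it called 1.4% higher and 0.37% lower. At the study's threshold (unadjusted p under 0.05 and over 1.5-fold), 0 genes rose or fell in parental cells (5.69% and 4.19% of all genes). In resistant cells 1 fell (ASNS, 0.274% of all genes). Between the populations 1 was higher (PSAT1) and 0 lower in either treatment. Of all genes, 17.2% were higher and 6.14% lower after vehicle, and 22.9% and 11.4% under oxamate. In response 0 of the 9 differed, where 5.54% of all genes were higher and 2.94% lower.

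With library size alone the sign changed for PHGDH (0.19) and MTHFD2 (0.13) between populations after vehicle, for PHGDH (0.062), SHMT2 (0.21), MTHFD2 (0.00019), MTHFD1L (0.12) and PYCR1 (0.038) under oxamate, for ASNS (0.021), PSAT1 (0.091) and PYCR1 (0.069) in the difference, and for ALDH18A1 (0.0082) under oxamate in resistant cells. Upper-quartile factors turned ALDH18A1 there (0.0011) and PHGDH after vehicle (0.049), which the covariate turned too (0.019). With each replicate left out, SHMT2 after vehicle ranged from -0.0056 (without the third parental vehicle library) to 0.038, and the PSAT1 difference from -0.042 to 0.0026 (without the third resistant oxamate library), with 4.4e-05 without the first parental oxamate library.

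Over those fits, counts of calls stayed as given with 3 exceptions. Under oxamate in resistant cells 7 to 8 were lower (7.61% to 13.4% of all genes). Between populations under oxamate 2 to 3 were higher (38.7% to 40.8%), and for the difference 4 to 5 were lower (19.1% to 22.3%). Without both libraries rich in nuclear-retained RNA, 8 fell in resistant cells, where 16.5% of all genes fell. Between populations under oxamate 2 were then higher, where 41.1% of all genes were. The lowest count behind any of the 9 genes was 1625.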
